A study of Mus musculus with 12 samples.

Results

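The genes described here are 8 nuclear genes of metabolism, namely Tigar, Gls2, Aldh4a1, Fdxr, Sco2, Pank1, Cpt1c and Lpin1. They were taken by name because they have been described as targets of the transcription factor p53, and they are 8 of the 53647 mouse gene identifiers in the deposited table. All 8 were found by symbol and all 8 passed the filter on low values, which required a level of 1 TPM or more in at least 2 libraries and left 15535 genes to be tested. TPM, the standard length-corrected measure, gives a gene's share of all transcripts in a library.

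The study exposed pregnant mice carrying embryos of embryonic day 9.5 to X-rays and sequenced poly(A)-selected RNA of the embryos. The irradiated groups received 30 Gy at 5 Gy per min and were collected 1 h or 3 h later. Each of 6 groups held 2 libraries, numbered 1 and 2. The groups were embryos labelled p53 -/- (knockout) that were untreated, at 1 h and at 3 h, and embryos labelled wild type that were untreated, at 1 h and at 3 h. The labels used here give neither the knockout allele, the strain, nor whether 1 embryo or a pool went into a library, so p-values rest on library-to-library spread that may be technical. Samples were of embryonic RNA in bulk, in which a change in the number of cells of a type cannot be told apart from a change in RNA per cell.

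In cells with damaged DNA, p53 is held back from degradation, binds its response element near target genes and raises their transcription. Best known among its targets are genes of cell-cycle arrest and cell death, but a further group encodes enzymes that alter how cells use sugar, amino acids, fat and oxygen. Which of these metabolic genes respond is known to depend on cell type and on the stress applied. In these embryos the group did not move together. Cpt1c, Lpin1, Aldh4a1 and Fdxr rose 3 h after irradiation in the libraries labelled knockout, with mean TPM 10.2, 8.18, 5.39 and 2.95 times that of the untreated libraries of the same label. Tigar, Gls2, Sco2 and Pank1 passed no test at either time. None of the 8 changed past the threshold in the libraries labelled wild type, where 0% of all genes did at either time.

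The transcript of Trp53, the gene for p53, was the check of the labels, and it went against them. Trp53 had 265 and 79.1 TPM in untreated libraries labelled knockout, 250 and 210 TPM at 1 h and 242 and 220 TPM at 3 h, while those labelled wild type had 114 and 211 TPM untreated, 114 and 66.8 TPM at 1 h and 93.7 and 68.0 TPM at 3 h. In 5 of 6 pairs of same-numbered libraries it was higher in the one labelled knockout, the exception being the untreated pair numbered 2. The labels do not say which part of the gene the knockout lacks, so the transcript level alone is no full check. The arrest gene Cdkn1a, a textbook p53 target, had 499 and 444 TPM at 3 h in libraries labelled knockout and 6.96 and 6.18 TPM in those labelled wild type. Genotypes are therefore given throughout as labels, and every direction drawn between labels below carries this limit. Library 2 of the 1 h groups was unlike the others under both labels, with 19.7% and 19.6% of TPM on ribosomal protein genes against 11.9% to 14.2% in the other 10 libraries. Both groups of the main comparison also stood low in 11 posterior Hox genes, which mark the caudal part of the embryo: their summed level was 13.1 and 19.4 TPM in untreated and 26.1 and 29.2 TPM in 3 h libraries labelled knockout, against 62.2 to 127 TPM in the other 8 libraries. Of these 11 genes, 2 were called lower under the knockout than the wild-type label before irradiation, where 0.0193% of all genes were. Under the knockout label 3 were called higher at 1 h than untreated, where 0.0837% of all genes were. At 3 h under that label 1 was called higher than untreated, where 6.25% of all genes were (limma). Also, 4 were called lower at 3 h than at 1 h under that label, where 4.31% of all genes were. Between knockout and wild-type labels at 3 h, 2 were called lower, where 5.07% of all genes were. The part of these genes in the results was not tested. The TPM table does not give read depth, so no counting error can be attached to the levels.

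Promoter sequence is shown for the 4 genes that rose and for Tigar, a member that did not, so that the bases just before their starts can be seen. The sequences are the 250 bases before the annotated start, on the gene's strand, from RefSeq (build GRCm38.p6; the submitters' processing notes name GRCm39 for the data). They are chr7:44974852-44975101 (minus strand) for Cpt1c, chr12:16610967-16611216 (minus) for Lpin1, chr4:139622644-139622893 (plus) for Aldh4a1, chr11:115276970-115277219 (minus) for Fdxr and chr6:127109553-127109802 (minus) for Tigar. Capitals mark the match closest to the 20-base p53 response element, which is made of 2 half-sites of 10 bases with up to 3 bases between them; where several matches tied, one was marked. The element reads the same on both strands, so 1 search covered both, and overlapping matches were allowed.
Cpt1c: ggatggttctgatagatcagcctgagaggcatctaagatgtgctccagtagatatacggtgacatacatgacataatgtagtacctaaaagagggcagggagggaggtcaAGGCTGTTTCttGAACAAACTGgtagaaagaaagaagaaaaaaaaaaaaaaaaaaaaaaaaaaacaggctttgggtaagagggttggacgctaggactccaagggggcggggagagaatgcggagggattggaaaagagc
Lpin1: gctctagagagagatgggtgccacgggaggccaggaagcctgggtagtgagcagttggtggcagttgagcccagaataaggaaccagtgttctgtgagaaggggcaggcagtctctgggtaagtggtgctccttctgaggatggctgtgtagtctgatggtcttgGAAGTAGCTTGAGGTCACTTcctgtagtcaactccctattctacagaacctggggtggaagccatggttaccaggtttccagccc
Aldh4a1: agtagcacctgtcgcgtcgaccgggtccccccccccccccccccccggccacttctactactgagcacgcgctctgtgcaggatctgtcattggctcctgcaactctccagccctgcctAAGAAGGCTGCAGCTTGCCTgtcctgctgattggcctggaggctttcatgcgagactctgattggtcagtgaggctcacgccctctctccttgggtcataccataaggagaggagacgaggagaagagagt
Fdxr: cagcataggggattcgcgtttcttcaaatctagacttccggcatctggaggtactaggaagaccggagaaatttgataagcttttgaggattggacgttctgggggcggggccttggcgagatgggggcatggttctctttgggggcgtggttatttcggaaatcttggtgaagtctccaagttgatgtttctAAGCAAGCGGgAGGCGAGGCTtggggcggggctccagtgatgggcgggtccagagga
Tigar: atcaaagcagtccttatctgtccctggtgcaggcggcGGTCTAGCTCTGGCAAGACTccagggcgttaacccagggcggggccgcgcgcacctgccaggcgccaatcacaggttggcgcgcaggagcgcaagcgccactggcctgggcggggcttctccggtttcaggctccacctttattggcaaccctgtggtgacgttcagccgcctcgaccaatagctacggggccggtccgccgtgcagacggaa
The closest match departed from the p53 response element at 4 of 20 positions in each of the 4 genes that rose and at 3 of 20 in Tigar. Among other members that did not rise, it departed at 5 in Sco2 and at 5 and 4 for the listed starts of Pank1. At most 4 mismatches were found in 60.7% of the 32841 promoter windows of this length in the RefSeq table. At most 3 were found in 18.3% and at most 5 in 94.9%. None of the 7 members with an entry, Sco2 and both listed starts of Pank1 included, held an exact half-site, which 7.13% of all windows did. Gls2 had no entry. These letters cover only the 250 bases before the start and say nothing of sites elsewhere.

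Before irradiation all 8 genes were expressed at low to moderate levels. Over the 4 untreated libraries of both labels, Sco2 averaged 12.0 ± 2.78 TPM, Tigar 11.1 ± 0.529, Aldh4a1 10.9 ± 1.96 and Pank1 10.2 ± 1.77 TPM (SD, n = 4). Their ranges overlapped, so the order among these 4 is not set by the data. Fdxr, whose range met those of Aldh4a1 and Pank1, followed at 7.65 ± 1.36 TPM, Cpt1c at 4.44 ± 1.13, Lpin1 at 2.02 ± 0.532 and Gls2 at 1.56 ± 0.295 TPM. The ranges of Fdxr, from 5.90 to 9.01 TPM, and of Cpt1c, from 3.36 to 5.47 TPM, did not overlap, nor did those of Cpt1c and Lpin1, and those of Lpin1 and Gls2 did. None of the 8 was called between the libraries labelled knockout and wild type before irradiation, with or without the replicate block, or passed an unadjusted p under 0.05, where 0.0193% of all genes were called (limma, Benjamini-Hochberg adjustment over all genes, which is the test used throughout).

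**Figure D1:**
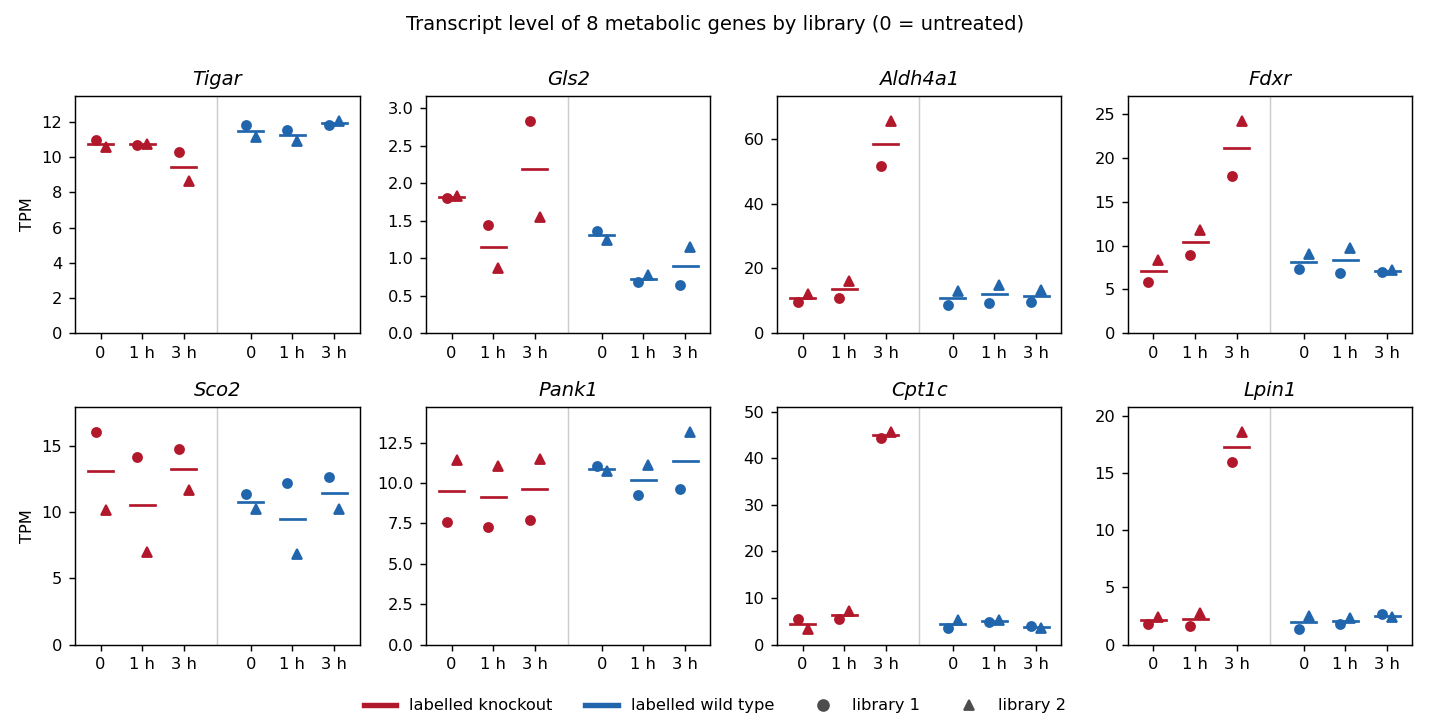
Level of each of the 8 genes in TPM (linear axes from 0, each gene on its own scale) in untreated embryos, 1 h and 3 h after 30 Gy. Points are single libraries, with those labelled knockout left of those labelled wild type, circles for library 1 and triangles for library 2, and bars are the means of 2 (0 on the time axis stands for untreated). At 3 h under the knockout label Cpt1c, Lpin1 and Aldh4a1 stand far above the other libraries. Fdxr stands above them by less (17.97 and 24.18 TPM, against at most 11.82 TPM), and the other 4 genes do not stand apart in this way.

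Tigar and Gls2 are the members that act on sugar and glutamine. Tigar (ENSMUSG00000038028) encodes a phosphatase that lowers fructose bisphosphates and thereby slows glycolysis. Its level was 10.97 and 10.56 TPM in untreated libraries labelled knockout, 10.71 and 10.76 TPM at 1 h and 10.26 and 8.65 TPM at 3 h. In libraries labelled wild type it was 11.83 and 11.12 TPM untreated, 11.52 and 10.93 TPM at 1 h and 11.79 and 12.04 TPM at 3 h. The 2 lowest of all 12 values were those at 3 h under the knockout label, and the remaining 10 spanned 10.56 to 12.04 TPM. Of all genes, 50.6% did not overlap between 3 h and untreated under that label, in either direction. Between labels at 3 h, 54.3% did not. The difference of 3 h minus untreated in libraries labelled knockout was -0.17 on the log2(TPM + 1) scale, with SE 0.145 and a 95% interval of -0.51 to 0.16 (adjusted p = 0.543, limma). The difference between knockout and wild-type labels at 3 h was -0.31 (SE 0.145, adjusted p = 0.239, limma), and it was -0.15 with median-of-ratios scaling. In all 6 same-numbered pairs Tigar was lower in the library labelled knockout, irradiated or not, and this count was not tested.

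Gls2 (ENSMUSG00000044005) encodes the liver-type glutaminase, which turns glutamine into glutamate in mitochondria. It had 1.80 and 1.83 TPM in untreated libraries labelled knockout, 1.44 and 0.87 TPM at 1 h and 2.83 and 1.55 TPM at 3 h, against 1.37 and 1.25 TPM untreated, 0.68 and 0.78 TPM at 1 h and 0.65 and 1.15 TPM at 3 h under the wild-type label. At 1 h both labels had values below those of their untreated libraries with no overlap. Of all genes, 31.5% under the knockout label and 26.6% under the wild-type label also did not overlap between these groups, in either direction. At 3 h the libraries labelled knockout spread widely on either side of their untreated level. The difference of 3 h minus untreated under the knockout label was 0.15 on the log2(TPM + 1) scale (SE 0.247, 95% interval -0.41 to 0.71, adjusted p = 0.805, limma). At 3 h Gls2 was higher under the knockout label than under the wild-type label by 0.73 (SE 0.247), which had an unadjusted p of 0.0170 and an adjusted p of 0.106 (limma). Gls2 was higher in the library labelled knockout in all 6 same-numbered pairs, the opposite of Tigar, and this count was not tested either. For neither gene was the share of all genes with such a count determined. At about 1 TPM Gls2 sits near the filter, and the pseudocount of 1 shrinks its differences.

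Aldh4a1 (ENSMUSG00000028737) encodes the mitochondrial dehydrogenase that completes the breakdown of proline to glutamate. It had 9.67 and 12.05 TPM in untreated libraries labelled knockout, 10.97 and 16.07 TPM at 1 h and 51.58 and 65.46 TPM at 3 h. Under the wild-type label it had 8.86 and 13.04 TPM untreated, 9.30 and 15.04 TPM at 1 h and 9.56 and 13.21 TPM at 3 h. Both 3 h libraries labelled knockout lay far above every other library, whose highest value was 16.07 TPM. Aldh4a1 averaged 58.5 ± 9.81 TPM at 3 h and 10.9 ± 1.68 TPM untreated under the knockout label (SD, n = 2 each), a rise of 2.32 on the log2(TPM + 1) scale (SE 0.305, adjusted p = 0.00169, limma). It was the most abundant member in those 2 libraries. Library 2 was above library 1 in all 6 groups.

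Fdxr and Sco2 serve the mitochondrial electron chains. Fdxr (ENSMUSG00000018861) encodes ferredoxin reductase, which passes electrons to ferredoxins for building iron-sulfur clusters and steroids. It had 5.90 and 8.37 TPM in untreated libraries labelled knockout, 8.97 and 11.82 TPM at 1 h and 17.97 and 24.18 TPM at 3 h. Under the wild-type label it had 7.31 and 9.01 TPM untreated, 6.88 and 9.73 TPM at 1 h and 7.02 and 7.26 TPM at 3 h. Under the knockout label the groups stood in the order untreated, 1 h, 3 h without overlap. Of all genes, 31.5% did not overlap between 1 h and untreated, 47.2% between 3 h and 1 h and 50.6% between 3 h and untreated. Under the wild-type label the 3 h values lay just below the untreated ones, groups that did not overlap for 30.3% of all genes. Means were 21.1 ± 4.39 TPM at 3 h and 7.14 ± 1.75 TPM untreated under the knockout label (SD, n = 2 each), a rise of 1.44 on the log2(TPM + 1) scale (SE 0.250, adjusted p = 0.00700, limma). This was the smallest of the 4 rises and the least secure, with an adjusted p of 0.0555 without untreated library 1, 0.0646 without 3 h library 2, both labelled knockout, and 0.0779 when only these 4 libraries were fitted.

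Sco2 (ENSMUSG00000091780) encodes a copper chaperone needed to assemble cytochrome c oxidase. It had 16.07 and 10.20 TPM in untreated libraries labelled knockout, 14.18 and 6.98 TPM at 1 h and 14.82 and 11.73 TPM at 3 h, against 11.38 and 10.27 TPM untreated, 12.20 and 6.88 TPM at 1 h and 12.68 and 10.24 TPM at 3 h under the wild-type label. Library 1 was above library 2 in all 6 groups, the reverse of Fdxr and Aldh4a1, and within each label the untreated, 1 h and 3 h values overlapped. The difference of 3 h minus untreated under the knockout label was 0.04 on the log2(TPM + 1) scale, with SE 0.365 and a 95% interval of -0.79 to 0.87 (adjusted p = 0.980, limma). Of all 8 members Sco2 had the widest interval, which leaves room for changes of nearly 1 log2 unit in either direction.

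Pank1, Cpt1c and Lpin1 belong to coenzyme A and lipid metabolism. Pank1 (ENSMUSG00000033610) encodes a pantothenate kinase, which starts the synthesis of coenzyme A. It had 7.58 and 11.41 TPM in untreated libraries labelled knockout, 7.28 and 11.06 TPM at 1 h and 7.73 and 11.48 TPM at 3 h, against 11.06 and 10.74 TPM untreated, 9.24 and 11.15 TPM at 1 h and 9.63 and 13.15 TPM at 3 h under the wild-type label. Under the knockout label the same 2 levels recurred at each time, the lower in library 1 and the higher in library 2. The difference of 3 h minus untreated there was 0.02 on the log2(TPM + 1) scale (SE 0.284, 95% interval -0.63 to 0.66, adjusted p = 0.991, limma).

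Cpt1c (ENSMUSG00000007783) encodes the brain-type member of the carnitine palmitoyltransferase 1 family, whose other members admit long-chain fatty acids to mitochondria. It had 5.47 and 3.36 TPM in untreated libraries labelled knockout, 5.43 and 7.24 TPM at 1 h and 44.40 and 45.60 TPM at 3 h. Under the wild-type label it had 3.57 and 5.37 TPM untreated, 4.76 and 5.17 TPM at 1 h and 3.90 and 3.57 TPM at 3 h. The 2 libraries at 3 h under the knockout label were nearly equal and lay above the other 10, whose highest was 7.24 TPM. The means of 45.0 ± 0.849 TPM at 3 h and 4.42 ± 1.49 TPM untreated under the knockout label (SD, n = 2 each) differed by 3.11 on the log2(TPM + 1) scale (SE 0.245, adjusted p = 0.000131, limma), the largest rise among the 8.

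Lpin1 (ENSMUSG00000020593) encodes a phosphatidate phosphatase of glycerolipid synthesis that also acts with nuclear regulators of fat oxidation. It had 1.79 and 2.44 TPM in untreated libraries labelled knockout, 1.65 and 2.75 TPM at 1 h and 16.03 and 18.59 TPM at 3 h. Under the wild-type label it had 1.38 and 2.48 TPM untreated, 1.81 and 2.28 TPM at 1 h and 2.69 and 2.39 TPM at 3 h. At 1 h its values lay on both sides of the untreated ones under the knockout label, and at 3 h they were far above every other library. The means of 17.3 ± 1.81 TPM at 3 h and 2.12 ± 0.460 TPM untreated (SD, n = 2 each) differed by 2.56 on the log2(TPM + 1) scale (SE 0.255, adjusted p = 0.000423, limma).

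The timing of the 4 rises was compared between 1 h and 3 h. At 1 h under the knockout label none of the 8 genes was called in either direction, and 0.103% of all genes were. Cdkn1a, in contrast, had 79.4 and 76.2 TPM at 1 h and 6.88 and 5.38 TPM untreated in these libraries, a rise of 3.47 on the log2(TPM + 1) scale (SE 0.187, adjusted p = 0.000498, limma). None of the members passed an unadjusted p under 0.05 at 1 h either, where 1407 of all genes did, and none was called with the replicate number as a block. The largest differences of 1 h minus untreated were 0.49 for Fdxr (SE 0.250, adjusted p = 0.622) and 0.45 for Cpt1c (SE 0.245, adjusted p = 0.648) by limma. Lpin1 differed by 0.03 (SE 0.255, 95% interval -0.56 to 0.61). Between 3 h and 1 h under the knockout label, 4 of 8 members were higher, against 6.89% of all genes. The rises were 2.66 for Cpt1c, 2.53 for Lpin1, 2.05 for Aldh4a1 and 0.95 for Fdxr, the last with an adjusted p of 0.0437 (limma). The call for Fdxr was lost in 12 of 21 alternatives, including any fit without either 3 h or either 1 h library of the knockout label. When only the 4 libraries compared were fitted, the calls for Aldh4a1 (adjusted p = 0.0657) and Fdxr (adjusted p = 0.209, limma) were lost.

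Against untreated embryos, the count at 3 h under the knockout label was 4 of 8 members higher and 0 lower, where 6.25% of all tested genes were called higher and 5.87% lower. With the replicate block these shares of all genes were 11.1% and 18.1%. The median difference was 0.80 over the 8 members and -0.12 over all genes, on the log2(TPM + 1) scale. The central 80% of all genes spanned -0.69 to 0.68, a range that holds Tigar, Gls2, Sco2 and Pank1 and lies below the other 4 members. Summed over the 8 genes, the level was 166 and 187 TPM in the 3 h libraries labelled knockout and 56.4 to 67.6 TPM in the other 10 libraries. The calls of Cpt1c, Lpin1 and Aldh4a1 held in all 21 alternative fits.

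Libraries labelled wild type gave no called member at 1 h, where 0% of all genes were called. The same held at 3 h against untreated, also with 0% of all genes called, and for 3 h against 1 h, again with 0%. No member passed an unadjusted p under 0.05 in these comparisons by limma, none was called with the replicate block, and 618, 524 and 928 of all genes passed that unadjusted level. The differences of 3 h minus untreated under the wild-type label ran from -0.29 for Gls2 to 0.30 for Lpin1. The intervals were not empty of moderate effects, since that of Lpin1 reached 0.88 and that of Sco2 0.90.

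**Figure D2:**
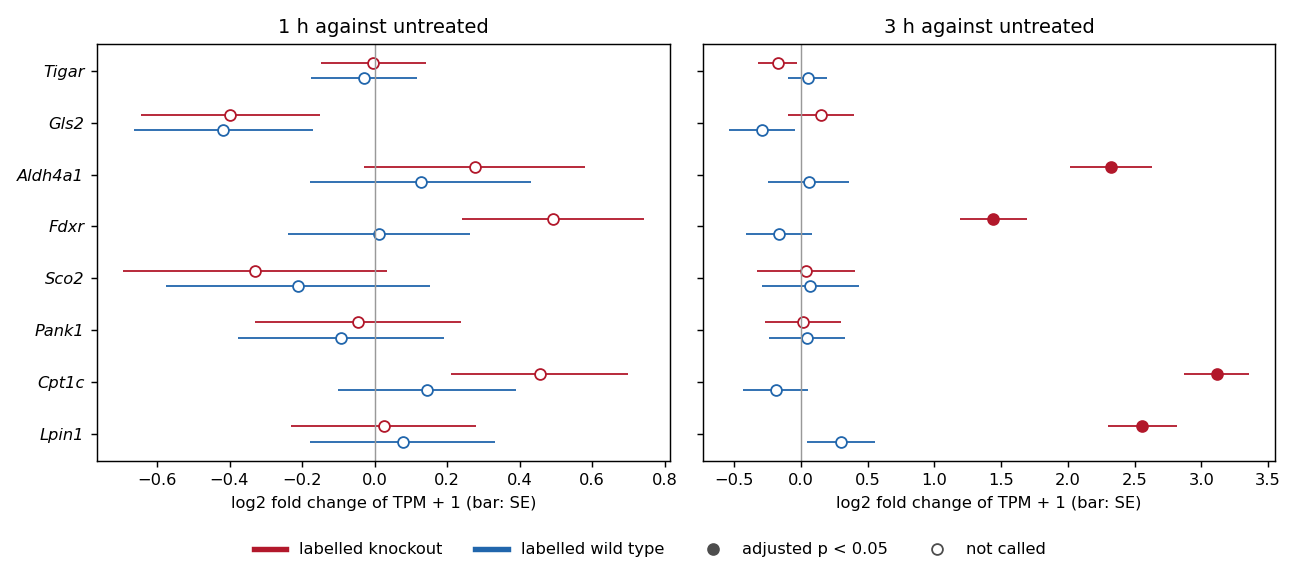
Difference of irradiated minus untreated libraries on the log2(TPM + 1) scale for each gene at 1 h (left) and 3 h (right, on a wider axis), under the knockout and wild-type labels, with points for the limma estimate and bars for its SE; filled points passed an adjusted p under 0.05. Filled are Cpt1c, Lpin1, Aldh4a1 and Fdxr at 3 h under the knockout label, between 1.44 and 3.11, and no others.

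Labels were then compared directly at each time. At 1 h, 0 of 8 members were called between knockout and wild-type labels and 0.0386% of all genes were, with none of the members at an unadjusted p under 0.05 and none called with the block (limma). At 3 h, 4 of 8 members were higher under the knockout label, against 5.25% of all genes. The differences were 3.28 for Cpt1c (SE 0.245), 2.37 for Lpin1 (SE 0.255), 2.27 for Aldh4a1 (SE 0.305) and 1.43 for Fdxr (SE 0.250), with adjusted p from 0.000108 to 0.00870 (limma). Fdxr missed the threshold without 3 h library 2 labelled knockout (adjusted p = 0.0785) and without either 3 h library labelled wild type (0.0683 without library 1 and 0.0574 without library 2).

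Whether the 3 h response itself differed between labels was tested as the difference of the 2 responses. At 3 h this difference was called for 4 of 8 members, with 2.59% of all genes called in that direction. It was 3.30 for Cpt1c (SE 0.346, adjusted p = 0.00161), 2.27 for Aldh4a1 (SE 0.431, adjusted p = 0.0260), 2.26 for Lpin1 (SE 0.361, adjusted p = 0.0118) and 1.61 for Fdxr (SE 0.354, adjusted p = 0.0480) by limma. At 1 h it was called for 0 of 8 members and 0.00644% of all genes, with no member at an unadjusted p under 0.05 and none called with the block. Cpt1c kept the 3 h call in all 21 alternatives, and the call was lost for Fdxr in 17, for Aldh4a1 in 9 and for Lpin1 in 7. In a fit added once the values were known, the untreated libraries numbered 2 were both left out, since their Trp53 levels ran with their labels while the other pairs ran against them. The adjusted p was then 0.212 for Aldh4a1, 0.228 for Fdxr and 0.112 for Lpin1. The comparisons at 3 h all use the same 2 libraries labelled knockout, so they are not separate evidence.

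Several members have close relatives, and 8 of these paralogs were described beside them. At 3 h against untreated under the knockout label, 12.1% of all genes were called by limma, and 29.2% with the replicate block. Of 8 paralogs, 0 were called there, 1 passed an unadjusted p under 0.05, and 1 was called higher with the block. With shares of that size, so few calls among 8 genes do not set the paralogs apart from other genes. The paralog called with the block was Cpt1b, the muscle-type carnitine palmitoyltransferase. It had 10.8 and 10.1 TPM at 3 h and 5.43 and 6.42 TPM untreated under the knockout label. It differed by 0.73 (SE 0.226), with an adjusted p of 0.0746 without the block and 0.0318 with it (limma). Cpt1b was called in the other comparisons at 3 h, by 1.18 against 1 h under the knockout label (adjusted p = 0.0123), by 0.95 between knockout and wild-type labels (adjusted p = 0.0316) and by 1.68 in the difference of responses (adjusted p = 0.0263, limma). Untreated libraries labelled wild type had 13.4 and 8.07 TPM, and the other libraries at 1 h and 3 h had 3.84 to 5.24 TPM, so the 3 h values of Cpt1b under the knockout label lay inside the range of the other 10 libraries. Cpt1a, the liver type, differed by -0.05, and the lipins Lpin2 and Lpin3 by -0.46 and 0.21. Sco1, the partner of Sco2, differed by -0.17. Pank2, Pank3 and Pank4 differed by -0.38, -0.32 and -0.11.

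Within each family, the member's share of the family's summed TPM shows the same contrast on a scale that needs no library scaling. Lpin1 made up 58.7% ± 3.62 of lipin transcripts at 3 h and 11.4% ± 1.13 untreated under the knockout label (SD, n = 2 each). Cpt1c made up 79.8% ± 1.28 of its family at 3 h and 38.6% ± 15.02 untreated. Lpin1 thus passed Lpin2 as the most abundant lipin in these 2 libraries. Sco2 held 49.4% ± 10.1 and 45.7% ± 14.0, and Pank1 12.98% ± 1.52 and 10.6% ± 1.47, at 3 h and untreated under the knockout label. The share of Sco2 differed by less than the spread between libraries, and that of Pank1 by little more.

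**Figure D3:**
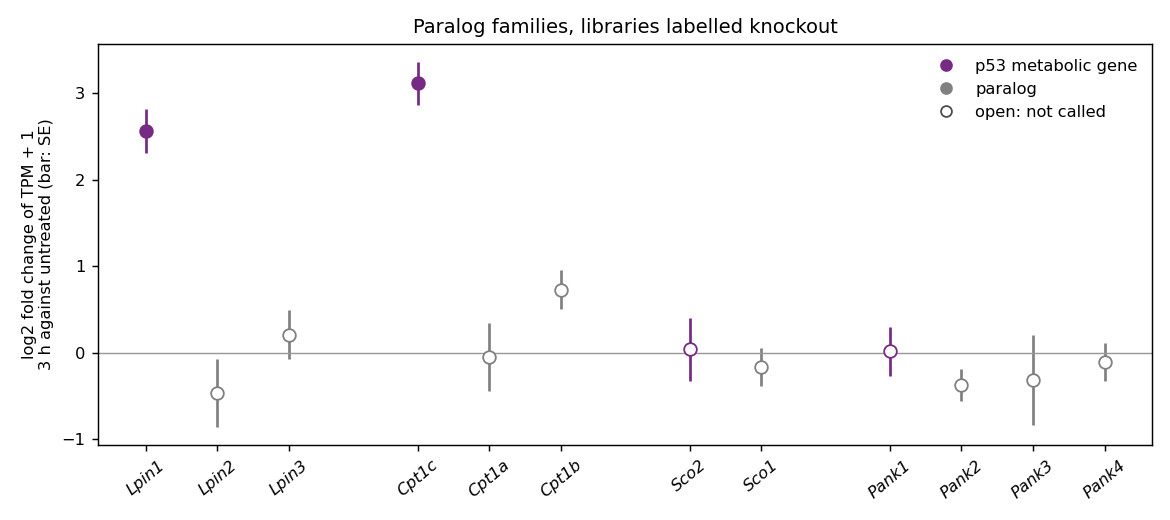
Difference of 3 h minus untreated libraries labelled knockout, on the log2(TPM + 1) scale, for 4 members and their 8 paralogs, with points for the limma estimate and bars for its SE; filled points passed an adjusted p under 0.05. Lpin1 and Cpt1c stand above their relatives, and no other gene shown was called.

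Other genes of the same pathways were counted from lists chosen by function, at 3 h against untreated under the knockout label. In this comparison 6.25% of all genes were called higher and 5.87% lower, and with the block 11.1% and 18.1%. Counts of 1 or 2 genes in a list are to be read against these shares. Of 18 glycolysis genes, 1 rose and 2 fell at 3 h under the knockout label. Ldhb, a lactate dehydrogenase subunit, rose to 185 ± 39.8 TPM, against 73.9 ± 7.59 TPM untreated (1.301 on the log2 scale, adjusted p = 0.00440, limma). Hk2, the inducible hexokinase, fell to 10.9 ± 1.87 TPM, against 61.1 ± 13.4 TPM untreated (-2.37, adjusted p = 0.000352). Slc2a1, the glucose transporter GLUT1, fell to 168 ± 61.0 TPM, against 313.5 ± 13.7 TPM untreated (-0.94, adjusted p = 0.0356; SD, n = 2 each). Slc2a1 was already at 166 ± 0.304 TPM at 1 h under the knockout label (-0.91, adjusted p = 0.283). Under the wild-type label it had 169 ± 8.88 TPM at 1 h and 198 ± 29.2 TPM at 3 h, against 299.5 ± 23.5 TPM untreated, differences of -0.82 and -0.60 with unadjusted p of 0.00763 and 0.0330 that were not called, and its difference of responses at 3 h was -0.34 (adjusted p = 0.745, limma). Among 4 tested genes of fructose bisphosphate turnover, the reactions next to that of Tigar, only Pfkfb3 was called, and it fell by 1.73 (adjusted p = 0.000804, limma) with 5.88 ± 0.601 TPM at 3 h and 22.0 ± 5.03 TPM untreated. 

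Of 7 pentose phosphate genes 1 rose, the epimerase gene Rpe, with 57.9 ± 1.14 TPM at 3 h and 29.4 ± 3.55 TPM untreated under the knockout label (0.96, adjusted p = 0.00551, limma). Of 9 glutamine genes 1 fell, the glutamine carrier Slc38a1 (-0.90, adjusted p = 0.0188), and with the block 1 rose and 3 fell. Of 6 tested proline genes 1 fell, Aldh18a1, whose product makes proline from glutamate (-0.57, adjusted p = 0.0419), with 47.1 ± 4.59 TPM at 3 h and 70.0 ± 2.07 TPM untreated. Prodh, which takes the first step of proline breakdown ahead of Aldh4a1, had 9.91 and 10.16 TPM at 3 h and 13.58 and 12.91 TPM untreated, a difference of -0.37 that was not called (unadjusted p = 0.0436, adjusted p = 0.182, limma).

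In lipid and coenzyme A metabolism, 0 of 16 genes of fatty acid oxidation were called by limma, 3 passed an unadjusted p under 0.05, and 6 were called higher with the block, where 11.1% of all genes were. The smallest p-values there were those of Etfdh, which feeds electrons from fat oxidation to the respiratory chain (0.54, adjusted p = 0.0518), and Cpt1b. Of 9 glycerolipid genes 2 fell, the acyltransferases Agpat1 (-0.68, adjusted p = 0.0260) and Agpat3 (-0.67, adjusted p = 0.0329, limma). Of 7 further coenzyme A genes 1 rose, the pantetheinase gene Vnn1, with 11.9 ± 2.31 TPM at 3 h and 4.48 ± 1.29 TPM untreated (1.24, adjusted p = 0.0229).

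Iron-sulfur cluster genes, the setting of Fdxr, gave 0 of 10 called, 1 at an unadjusted p under 0.05 and 1 lower with the block (limma). The smallest p-values were those of Lyrm4 (-0.60, adjusted p = 0.129) and Glrx5 (0.44, adjusted p = 0.741), both of which act in cluster assembly. Genes of cytochrome oxidase assembly, the setting of Sco2, gave 0 of 13 called, 0 at an unadjusted p under 0.05, and 1 higher and 1 lower with the block. Coa7 differed by -0.62 (adjusted p = 0.396) and Cox10, a heme-modifying enzyme, by -0.27 (adjusted p = 0.409). Cytochrome oxidase subunits gave 0 of 11 called, 0 at an unadjusted p under 0.05 and 0 with the block. Cox4i1 differed by 0.27 (adjusted p = 0.362) and Cox6b1 by 0.33 (adjusted p = 0.624, limma). Of 13 tested metabolic genes linked to p53, a list that shares genes with those above, 3 rose and 3 fell. Among those that rose was Acad11, an acyl-CoA dehydrogenase, with 30.9 ± 4.45 TPM at 3 h and 9.70 ± 0.410 TPM untreated (1.57, adjusted p = 0.00290, limma). Pltp, the phospholipid transfer protein, had 38.6 ± 4.04 TPM at 3 h and 9.79 ± 2.07 TPM untreated (1.89, adjusted p = 0.00437, limma). The 3 genes of that list that fell were Hk2, Pfkfb3 and Slc2a1, all counted above. As a yardstick, 6 of 6 reference p53 targets, Cdkn1a and Mdm2 among them, rose, by 3.10 to 6.06 with a median of 5.00. The 4 members that rose did so by 1.44 to 3.11. The median of 0.80 over all 8 members lay between these 4 and the 4 that did not rise. The reference targets too were chosen with earlier results of these data known. In libraries labelled wild type no gene of any of these metabolic lists was called at 3 h against untreated, where 0% of all genes were.

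**Figure D4:**
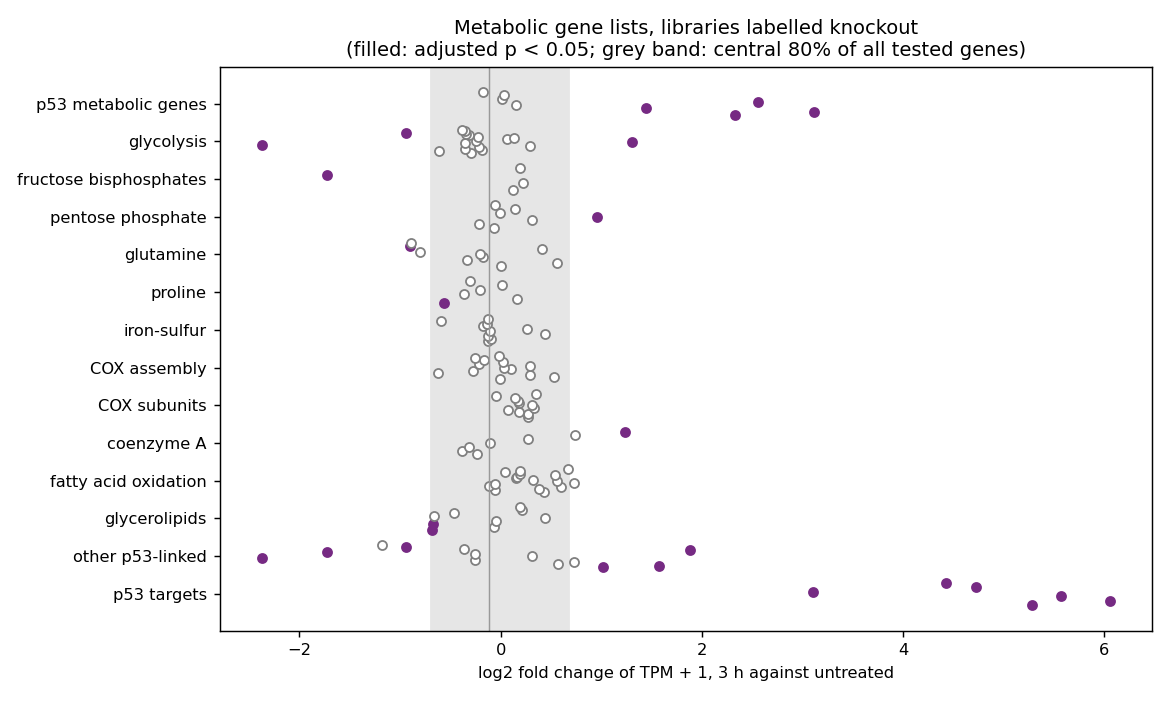
Difference of 3 h minus untreated libraries under the knockout label, on the log2(TPM + 1) scale, with a row for each metabolic list, the 8 members at the top and the 6 reference p53 targets at the bottom, and a point for each gene; the grey band holds the central 80% of all tested genes and its line is their median. Filled points passed an adjusted p under 0.05 (limma), 4 among the members and 0 to 3 in each direction in the metabolic lists.

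Cell-type markers moved with the 3 h libraries labelled knockout as well. Against untreated libraries of that label, 6.25% of all genes were called higher and 5.87% lower, and with the block 11.1% and 18.1%. Of 10 erythroid markers, 5 were called higher there than in untreated libraries of that label and 8 with the block, and their summed level was 14958 to 16165 TPM in the 3 h libraries labelled knockout, against 2331 to 13172 TPM in the other 10. Of 10 cardiac markers 2 were called higher and 7 with the block, with sums of 3348 to 3717 TPM in the 3 h libraries labelled knockout, against 1396 to 2546 TPM in the other 10. Of 12 neuronal markers 1 was called higher and 2 lower, with sums of 74.0 to 84.2 TPM, against 76.8 to 292 TPM, beside the rise of the brain-type Cpt1c. Visceral endoderm markers summed to 169 and 455 TPM, against 23.7 to 239 TPM, with 0 of 10 called, 3 at an unadjusted p under 0.05 and 1 with the block. Of 8 trophoblast markers 3 passed the filter and 1 was called higher, while Tpbpa and Ctsq were at 0 in every library. Against 1 h under the knockout label, 6 cardiac and 2 erythroid markers were called higher and 8 neuronal markers lower. The shares of all genes there were 6.89% higher and 4.31% lower. Between knockout and wild-type labels at 3 h, 6 cardiac markers were called higher and 3 neuronal markers lower, against 5.25% and 5.07% of all genes. Erythroid markers gave 0 of 10 in that comparison, 3 at an unadjusted p under 0.05 and 3 higher with the block. With the block 9.67% of all genes were called higher there. In the difference of responses at 3 h, 0 cardiac and 0 erythroid markers were called, and 3 and 7 passed an unadjusted p under 0.05. With the block 4 and 6 were called higher (limma). Of all genes, 2.59% were called higher in that difference without the block and 5.99% with it. The part of cell composition in the rises of the members was not tested.

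Over the 12 libraries, the genes whose levels ran closest to each member were found by Pearson's r on the log2(TPM + 1) scale, as a description in which all points share the same libraries. For Cpt1c these were Snx20, Def6 and Gjb5 (each r = 0.989). For Lpin1 they were Igdcc4, Prrg4 and Nexmif (each r = 0.992). For Aldh4a1 they were Serpine2 (r = 0.996), Perp (r = 0.995) and Abhd4 (r = 0.994), and for Fdxr they were Rap2a (r = 0.986), Cd151 (r = 0.983) and Junb (r = 0.983). For the members that did not rise they were Myh7, Ola1 and Rpl7a-ps10 for Sco2 (r = 0.969, 0.965 and 0.957), Zbtb34, Atp11a and Arhgap42 for Pank1 (r = 0.959, 0.952 and 0.949), Zfp946, Rgs2 and Zfp68 for Tigar (r = 0.909, 0.901 and 0.892), and Cnn2, Myl7 and Alpk3 for Gls2 (r = 0.844, 0.840 and 0.826).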

How the data were processed

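RNA of E9.5 mouse embryos in 12 libraries, 2 per group, was read from poly(A)-selected paired-end libraries with reads of 75 bp, per the labels' protocols. The values are TPM as the authors deposited them, with 1 column per library that holds all of its transcripts. Tools named in the submitters' processing notes are RSEM 1.3.3, STAR 2.7.3a, HTSeq 0.12.3, R 4.3.3 and DESeq2 1.42.1, and the builds are GRCm39 and mm39; the step that made the TPM is not stated there. TPM keeps no depth, so no count model was used and the depth behind a value is unknown. Symbols came from GENCODE M21, which matched 52093 of 53647 gene identifiers.

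Values were taken as log2(TPM + 1), which understates changes of low genes, for the 15535 genes at 1 TPM or more in at least 2 libraries. One limma model (version 3.58.1, R 4.3.3, trended prior) with a mean per group over all 12 libraries gave 11 contrasts, two-sided, with Benjamini-Hochberg adjustment over all genes, and calls were made below an adjusted p of 0.05. A difference of responses is 3 h or 1 h minus untreated under the knockout label, less the same under the wild-type label.

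Same-numbered libraries deviated from their group means together in all 15 pairs of groups (correlation 0.327 to 0.796), so the number was also fitted as a block; the pairing comes from the data, not from the labels. Alternatives were other pseudocounts, filters, scalings and fits, and leaving out each library. Named genes are the 8 members, the label checks Trp53 and Cdkn1a, the paralogs, up to 4 called genes per metabolic list with the smallest p at 3 h under the knockout label (otherwise the 2 with the smallest p), and the 3 nearest genes of each member; a few genes are named for their role after their values were seen. The members and lists were chosen with earlier results of these data known. One gene of the lists is not reported here.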

Additional observations from a re-analysis of the deposited data

Results flagged for a closer look

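For 4 of the 8 genes the response at 3 h differed between the labels in a test of that difference itself. The test was limma on knockout-label response minus wild-type-label response, on the log2(TPM + 1) scale, with adjusted p from 0.00161 to 0.0480. The larger response was under the knockout label in each, a direction in which 2.59% of all genes were called. Only the call for Cpt1c held in all 21 alternative fits. The difference was 3.30 for Cpt1c, 2.27 for Aldh4a1, 2.26 for Lpin1 and 1.61 for Fdxr. Under the knockout label, 3 h and untreated libraries did not overlap for 50.6% of all genes. In both 3 h libraries of that label each of these 4 genes was above every other library. The calls rest on the same 2 libraries, so this is not separate evidence. Trp53 transcript was also higher in those 2 libraries, at 242 and 220 TPM, than in the 3 h libraries labelled wild type, at 93.7 and 68.0 TPM. It was at 250 and 210 TPM at 1 h and 265 and 79.1 TPM untreated under the knockout label, where the 4 genes were lower than at 3 h. A link between the Trp53 level and the 4 genes was not tested.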

How the results depend on the processing

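Over 88 member results (8 genes in 11 comparisons) and 21 alternatives each, 52 of 1848 alternative values lost a call, none gained one and no called value changed sign; 112 values that were never called changed sign. For 3 h against 1 h under the knockout label, 2 members (Cpt1c and Lpin1) were called when only those groups were fitted. For the difference of 3 h responses, 1 to 3 members were called with 1 library left out: only Cpt1c without either 3 h library of either label, untreated library 1 labelled knockout or untreated library 2 labelled wild type, Cpt1c and Lpin1 without the other untreated libraries, and 3 members without a 1 h library. It was 1 member, Cpt1c, without both untreated libraries numbered 2, a fit chosen after seeing the data. In these fits the adjusted p ranged up to 0.212 for Aldh4a1, 0.228 for Fdxr and 0.112 for Lpin1, while that of Cpt1c stayed at or below 0.0327. Where a library was left out, the lone library of its group was taken to vary like the other groups.

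The replicate block changed no call of a member. Over all genes it moved the calls at 3 h against untreated under the knockout label to 4534, against 1883 without the block, and the difference of responses to 2078, against 536. Fitting only the 2 groups gave 466 calls, and 605 and 731 were left without 3 h library 1 or 2. Median-of-ratios scaling put 61.9% of those calls in the higher direction, against 51.6%, and 66.9% against 50.8% for knockout against wild-type labels, with a shift of the median of all genes by 0.146 between labels at 3 h. Depth is unknown and each group has 2 libraries, so changes of the size seen for Tigar and Gls2 could not be told from 0.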
